A study of Homo sapiens with 36 samples.

Results

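The transcriptional response to bacterial lipopolysaccharide (LPS) was measured in THP-1 monocytes depleted of NR4A3 and held at 5% CO2. THP-1 is a monocytic line derived from a human acute monocytic leukaemia. The libraries were chosen by their labels: 6 of the 36 libraries of the series came from shNR4A3 cells at 5% CO2, 3 without LPS (basal) and 3 with LPS (LPS-stimulated). Every line in the series carried a lentiviral short hairpin RNA, directed at NR4A3 (shNR4A3), at NR4A2 (shNR4A2) or at no target (shNT), and whether a line was 1 clone is not given in the sources used here. Cells were held for 4 h in humidified chambers in medium that was pH-buffered and equilibrated beforehand, and the LPS-stimulated cells received 2.5 µg/mL LPS for the last 2 h. The shNT and shNR4A2 lines at 5% CO2 and shNR4A3 cells at 10% CO2, each with and without LPS, were used only to show where the response differed. The labels number 3 replicates per condition, which the study describes as individual experiments. Which steps those shared is not given in the sources used here, and the p-values measure the spread between these libraries.

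LPS from the outer membrane of Gram-negative bacteria is bound by the receptor TLR4 with its partners MD-2 and CD14. The adaptors MYD88 and TICAM1 then pass the signal to kinases that release the transcription factor NF-kB from its inhibitors and activate AP-1 and interferon regulatory factors. Monocytes answer within hours with cytokines, chemokines and, in parallel, the proteins that shut the same pathway down. NR4A1, NR4A2 and NR4A3 are orphan nuclear receptors encoded by immediate early genes, and LPS is known to induce all of them in monocytes and macrophages.

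Of 17720 genes tested, 4490 (25.3%) were differentially expressed between LPS-stimulated and basal shNR4A3 cells at an adjusted p under 0.05 in edgeR's quasi-likelihood test. Of these DEGs, 2111 (11.9% of genes tested) rose and 2379 (13.4%) fell. Counts of list members given below are to be read against these shares. The rises were the larger changes, with a median log2 fold change of 1.03 against -0.70 for the falls. At least 2-fold changes were called for 1080 higher genes (6.09%) and 662 lower genes (3.74%), and at least 8-fold changes for 423 and 20 genes. The basal and LPS-stimulated libraries did not overlap in 40.7% of genes tested. Genes named below as the largest changes of a list or of all genes were picked among these. Absence of overlap in them is therefore no added support. Fold changes were fitted after scaling that centred the median gene at -0.01, so they need not equal the ratio of the TPM values (a level per gene length, as a share of all transcripts of a library) given beside them. Without that scaling the median gene fell by 0.202 on the log2 scale and 24.3% rather than 47% of DEGs were higher, so each change is relative to the median gene. With replicate numbers kept as a block, 2961 genes rose and 3339 fell. In bulk RNA, fewer cells expressing a gene and less RNA per cell cannot be told apart.

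**Figure D1:**
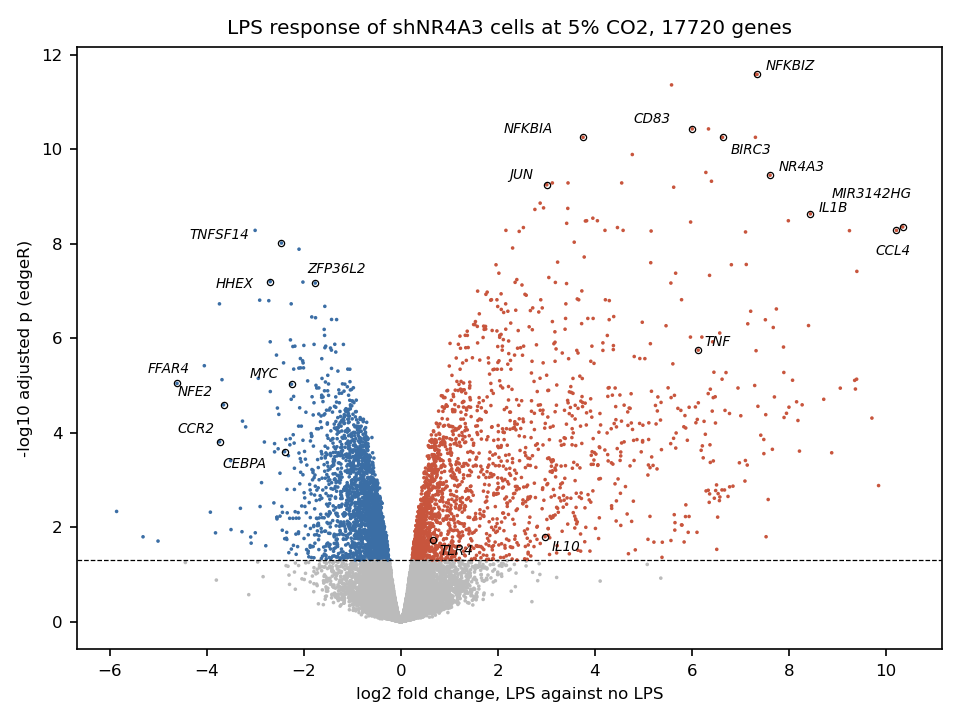
Log2 fold change of LPS-stimulated against basal shNR4A3 cells at 5% CO2 (x axis) and -log10 of the adjusted p (y axis) for the 17720 genes tested, with DEGs higher with LPS in red, lower in blue and other genes in grey. The dashed line is an adjusted p of 0.05, and the rises reach a log2 fold change of 10.35 (MIR3142HG) while most falls stay above -3.

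NR4A3 was checked first, since the hairpin targets it. NR4A3 (chr9:99821855-99866891) stood at 0.158, 0.107 and 0.0315 TPM in the basal libraries and 17.03, 18.2 and 16.7 TPM with LPS, log2 fold change 7.61 ± 0.24 (SE, adjusted p = 3.56e-10). Every LPS-stimulated library was far above every basal library, so the gene was still induced in the line built to deplete it. In shNT cells NR4A3 was 0.587 ± 0.094 TPM without LPS and 31.7 ± 0.708 TPM with it (mean ± SD, n = 3). Between shNR4A3 and shNT cells 6.19% of genes differed in the basal state and 5.41% with LPS. Against shNT cells, NR4A3 in shNR4A3 cells had a log2 difference of -2.47 ± 0.53 (SE, adjusted p = 0.00982) in the basal state and -0.82 ± 0.08 (SE, adjusted p = 2.86e-04) with LPS. The basal difference rested on few reads, and without shNT replicate 2 it was -2.32 with an adjusted p of 0.0516.

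The other members of the family, which the hairpin does not target, rose as well. NR4A2 had 2.51, 2.97 and 3.31 TPM in the basal libraries and 41.8, 60.7 and 38.3 TPM with LPS, log2 fold change 4.21 ± 0.18 (SE, adjusted p = 5.24e-09). NR4A1 had 4.02, 8.37 and 5.104 TPM in the basal libraries and 17.6, 20.03 and 16.9 TPM with LPS, log2 fold change 1.87 ± 0.20 (SE, adjusted p = 7.67e-05). The groups did not overlap for either gene, and LPS replicate 2 was the highest library for both. Their levels did not pass the test against shNT cells: for NR4A2 the log2 difference with LPS was -0.37 ± 0.16 (SE, adjusted p = 0.223), and for NR4A1 it was 0.06 ± 0.14 (SE, adjusted p = 0.851).

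**Figure D2:**
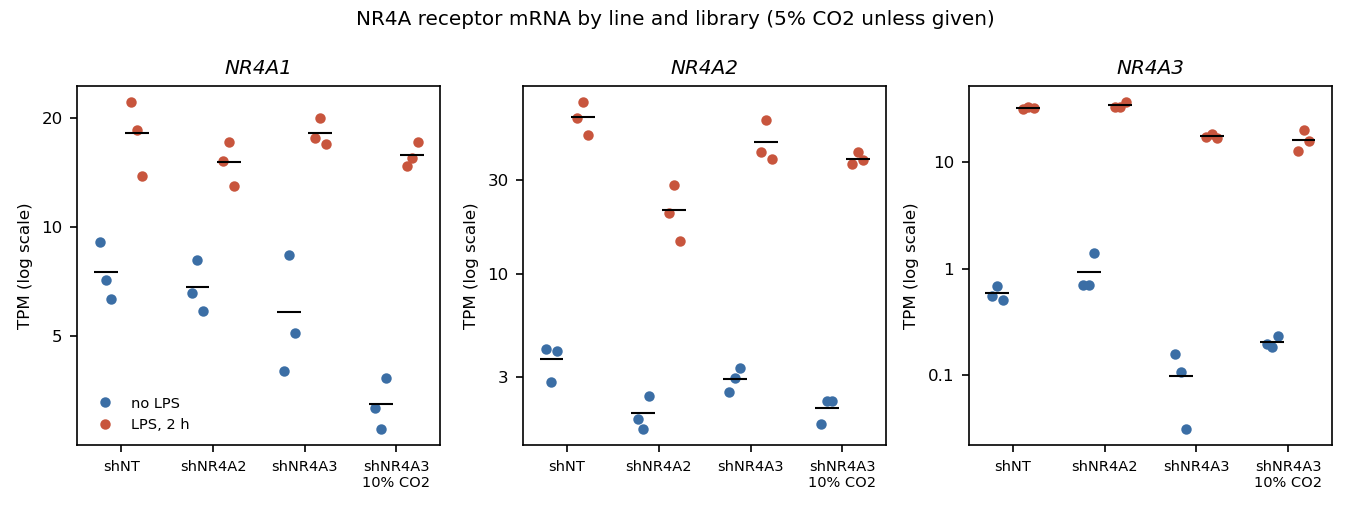
TPM (log scale) of NR4A1, NR4A2 and NR4A3 in each library of shNT, shNR4A2 and shNR4A3 cells at 5% CO2 and of shNR4A3 cells at 10% CO2; points are libraries without LPS (blue) and with LPS (red), bars are means of 3. In shNR4A3 cells NR4A3 lies between 0.0315 and 0.158 TPM without LPS and between 16.7 and 18.2 TPM with it, below the shNT libraries in both states.

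Among 17 tested genes of the LPS receptor and its adaptors, 7 rose and 3 fell, with a median of 0.06 against -0.01 for all genes. The receptor itself changed little: TLR4 had 22.98, 22.04 and 18.03 TPM in the basal libraries and 33.2, 31.9 and 20.6 TPM with LPS, log2 fold change 0.66 ± 0.18 (SE, adjusted p = 0.0189). In TPM LPS replicate 3 lay inside the basal range, and the call was lost without the scaling and without basal replicate 2, basal replicate 3 or LPS replicate 1. CD14, the co-receptor, had 53.3, 31.4 and 35.2 TPM in the basal libraries and 38.4, 16.9 and 25.7 TPM with LPS and was not called (adjusted p = 0.56). Downstream, IRAK2, a kinase of the MYD88 arm, had 9.099, 11.9 and 9.72 TPM in the basal libraries and 264, 145 and 256 TPM with LPS, log2 fold change 4.68 ± 0.30 (SE, adjusted p = 3.64e-05). TICAM1, the adaptor of the interferon-inducing arm, had 25.5, 18.8 and 21.1 TPM in the basal libraries and 140.2, 107 and 121 TPM with LPS, log2 fold change 2.71 ± 0.17 (SE, adjusted p = 6.63e-07). TLR2, the receptor for bacterial lipoproteins, went from 96.9, 112 and 119.5 to 283, 265 and 314 TPM (log2 fold change 1.62 ± 0.11 SE, adjusted p = 3.06e-07). Of the members that fell, CD180, a TLR4 relative expressed at the cell surface, had 6.86, 4.51 and 6.43 TPM in the basal libraries and 1.304, 1.26 and 1.06 TPM with LPS, log2 fold change -2.08 ± 0.23 (SE, adjusted p = 2.98e-05). TIRAP, the sorting adaptor that brings MYD88 to TLR4, had 13.6, 14.9 and 14.7 TPM in the basal libraries and 4.94, 5.52 and 5.78 TPM with LPS, log2 fold change -1.19 ± 0.14 (SE, adjusted p = 5.73e-05). For all 4 of IRAK2, TICAM1, CD180 and TIRAP the basal and LPS-stimulated libraries did not overlap.

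All 5 NF-kB subunit genes were DEGs and higher, with a median log2 fold change of 3.71. NFKB2, the precursor of p52, had 21.4, 21.2 and 17.1 TPM in the basal libraries and 653, 411 and 599 TPM with LPS, log2 fold change 5.03 ± 0.23 (SE, adjusted p = 2.71e-06). RELB, its usual partner, had 33.2, 40.2 and 29.8 TPM in the basal libraries and 433, 305 and 425 TPM with LPS, log2 fold change 3.73 ± 0.18 (SE, adjusted p = 4.93e-07). NFKB1, the precursor of p50, had 47.6, 44.6 and 44.9 TPM in the basal libraries and 619, 335 and 568 TPM with LPS, log2 fold change 3.71 ± 0.27 (SE, adjusted p = 7.27e-05). In each of these 3 genes LPS replicate 2 was the lowest LPS-stimulated library, yet all 3 LPS libraries were above the basal ones. REL went from 5.45, 9.47 and 7.06 to 83.7, 60.2 and 63.2 TPM (log2 fold change 3.48 ± 0.22 SE, adjusted p = 1.37e-05). RELA, the subunit that is present before stimulation, had 79.995, 82.1 and 70.000 TPM in the basal libraries and 81.8, 86.2 and 79.7 TPM with LPS, log2 fold change 0.31 ± 0.09 (SE, adjusted p = 0.0197); its libraries overlapped in TPM, and without the scaling its log2 fold change was 0.12 and not called.

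The list of NF-kB inhibitors also holds nuclear IkB proteins such as NFKBIZ and BCL3, which need not act as inhibitors. Its members rose as a group: 11 of 11 were DEGs and higher, 10 of them at least 2-fold, with a median of 2.08. NFKBIA, which encodes IkBa, the protein that holds NF-kB in the cytoplasm, had 148, 154 and 141 TPM in the basal libraries and 1818, 1636 and 1674 TPM with LPS, log2 fold change 3.76 ± 0.10 (SE, adjusted p = 5.63e-11). NFKBIZ, a nuclear IkB protein needed for a later tier of target genes, had 3.82, 3.68 and 3.002 TPM in the basal libraries and 524, 496 and 443 TPM with LPS, log2 fold change 7.34 ± 0.14 (SE, adjusted p = 2.62e-12). TNFAIP3, which encodes the ubiquitin-editing enzyme A20, had 23.4, 19.98 and 18.1 TPM in the basal libraries and 1540, 1416 and 1171 TPM with LPS, log2 fold change 6.29 ± 0.16 (SE, adjusted p = 3.12e-10). The spread among the 3 libraries of a group was small beside the change in all 3 genes. TNIP3, an A20-binding protein, was at 0.212, 0.18 and 0.211 TPM in the basal libraries and 70.4, 29.7 and 54.5 TPM with LPS (log2 fold change 8.19 ± 0.57 SE, adjusted p = 5.52e-05). BCL3, a nuclear IkB protein that binds p50 and p52, had 30.001, 28.8 and 28.4 TPM in the basal libraries and 91.5, 82.4 and 99.2 TPM with LPS, log2 fold change 1.87 ± 0.11 (SE, adjusted p = 1.54e-07).

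The promoters of NFKBIA, TNFAIP3 and the CXC chemokine genes CXCL1, CXCL2 and CXCL3, described next, are shown as classical targets of this pathway. Each of those shown holds a match, whereas not every promoter of the lists does, as counted below. Each line runs 5′ to 3′ on the gene's strand from 250 bases before to 50 bases after the RefSeq start (GRCh38.p14), and capitals mark matches to the NF-kB consensus on either strand, with overlapping matches drawn as 1 run.
NFKBIA, chr14:35404700-35404999, minus strand: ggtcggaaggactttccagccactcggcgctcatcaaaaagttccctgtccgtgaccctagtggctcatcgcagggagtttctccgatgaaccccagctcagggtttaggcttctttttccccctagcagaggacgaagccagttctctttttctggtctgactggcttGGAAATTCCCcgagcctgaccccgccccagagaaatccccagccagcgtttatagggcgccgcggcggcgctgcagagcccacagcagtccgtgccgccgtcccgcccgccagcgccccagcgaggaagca
TNFAIP3, chr6:137867009-137867308, plus strand: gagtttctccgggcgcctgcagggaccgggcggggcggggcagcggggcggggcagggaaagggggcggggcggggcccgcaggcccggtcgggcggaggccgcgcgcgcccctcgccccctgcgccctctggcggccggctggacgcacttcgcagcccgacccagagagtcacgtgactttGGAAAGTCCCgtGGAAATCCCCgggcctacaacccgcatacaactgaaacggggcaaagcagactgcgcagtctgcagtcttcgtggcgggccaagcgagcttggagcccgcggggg
CXCL1, chr4:73869143-73869442, plus strand: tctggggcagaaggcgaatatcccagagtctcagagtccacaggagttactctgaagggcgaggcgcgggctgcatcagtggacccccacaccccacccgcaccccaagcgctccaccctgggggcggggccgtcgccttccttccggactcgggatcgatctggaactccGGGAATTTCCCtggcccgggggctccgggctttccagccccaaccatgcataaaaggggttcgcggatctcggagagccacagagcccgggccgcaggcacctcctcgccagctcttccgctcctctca
CXCL2, chr4:74099146-74099445, minus strand: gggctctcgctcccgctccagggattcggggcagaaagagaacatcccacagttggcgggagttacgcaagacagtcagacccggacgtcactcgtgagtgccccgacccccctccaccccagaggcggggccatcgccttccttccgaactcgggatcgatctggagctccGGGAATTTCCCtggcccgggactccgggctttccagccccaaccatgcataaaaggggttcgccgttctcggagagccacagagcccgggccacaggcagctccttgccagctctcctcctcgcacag
CXCL3, chr4:74038640-74038939, minus strand: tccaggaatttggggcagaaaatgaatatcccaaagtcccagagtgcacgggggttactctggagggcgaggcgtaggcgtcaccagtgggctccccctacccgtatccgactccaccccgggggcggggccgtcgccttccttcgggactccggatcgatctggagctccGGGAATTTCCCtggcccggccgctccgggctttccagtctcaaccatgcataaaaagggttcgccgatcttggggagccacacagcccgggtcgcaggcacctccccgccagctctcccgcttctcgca
The match in NFKBIA began 81 bases before the start, and those in TNFAIP3 began 67 and 55 bases before it. In CXCL1, CXCL2 and CXCL3 a pair of overlapping matches in opposite reading formed the same run, beginning 79, 78 and 79 bases before the start. The consensus was found in 5 of 10 inhibitor promoters in the table, in 2 of 4 promoters of the subunit genes and in 6 of 9 promoters of CXC chemokines that rose, and in 10.8% of all 27305 promoters of that length. The AP-1 site TGANTCA was in 2 of the 9 CXC promoters (7.76% of all), the TATA box TATAAA, searched on the gene's strand, in 3 (7.71%), and the NR4A monomer site AAAGGTCA in 0 (1.21%). These are matches of letters in 300 bases and say nothing on binding.

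CXC chemokines, which draw neutrophils and, for CXCL9 to CXCL11, T cells, had the highest median of the lists, 6.78, and 9 of 11 tested members were higher. CXCL8 (chr4:73740506-73743716), the chief neutrophil attractant of human monocytes, had 27.7, 30.5 and 24.5 TPM in the basal libraries and 6281, 4012 and 4115 TPM with LPS, log2 fold change 7.68 ± 0.27 (SE, adjusted p = 5.94e-07). CXCL3 had 0.539, 0.204 and 0.449 TPM in the basal libraries and 304, 167 and 245 TPM with LPS, log2 fold change 9.40 ± 0.44 (SE, adjusted p = 7.38e-06). CXCL2 had 3.45, 2.11 and 1.19 TPM in the basal libraries and 780.1, 542 and 653 TPM with LPS, log2 fold change 8.40 ± 0.31 (SE, adjusted p = 5.42e-07). CXCL1 had 4.77, 3.14 and 2.77 TPM in the basal libraries and 1058, 574 and 841 TPM with LPS, log2 fold change 8.07 ± 0.38 (SE, adjusted p = 7.77e-06). For these neighbours in 359 kb of chromosome 4 (chr4:73740506-74099293, from CXCL8 to CXCL2), LPS replicate 1 was the highest library in every case and no group overlapped. CXCL10, an interferon-inducible attractant of T cells, had 2.54, 1.92 and 2.03 TPM in the basal libraries and 535, 354 and 847 TPM with LPS, log2 fold change 8.27 ± 0.49 (SE, adjusted p = 2.57e-05), and here replicate 3 was the highest. CXCL11 went from 0.313, 0.474 and 0.209 to 32.6, 17.5 and 44.5 TPM and CXCL9 from 0.145, 0 and 0 to 1.28, 1.06 and 5.13 TPM, log2 fold changes 6.78 ± 0.54 and 5.64 ± 1.10. CXCL13 and CXCL16 did not pass the test.

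CC chemokines followed, with 9 of 13 higher, 1 lower and a median of 5.38. CCL4, which encodes MIP-1 beta, had 1.37, 1.56 and 0.686 TPM in the basal libraries and 1444, 1014 and 1215 TPM with LPS, log2 fold change 10.22 ± 0.27 (SE, adjusted p = 5.24e-09). CCL3, which encodes MIP-1 alpha, had 4.402, 5.75 and 3.33 TPM in the basal libraries and 1168, 907 and 838 TPM with LPS, log2 fold change 7.99 ± 0.22 (SE, adjusted p = 3.28e-09). CCL4L2 rose with a log2 fold change of 9.40 ± 0.28, but the counting kept reads unique to a gene, and CCL4 and CCL4L2, like CCL3 and CCL3L3, are near-identical copies between which reads are hard to assign. CCL20, the ligand of CCR6, had 6.08, 4.72 and 5.63 TPM in the basal libraries and 1447, 786 and 1123 TPM with LPS, log2 fold change 7.90 ± 0.35 (SE, adjusted p = 5.32e-06). CCL2, the ligand of CCR2 and the main attractant of monocytes, had 3.41, 3.42 and 3.81 TPM in the basal libraries and 111, 55.6 and 73.7 TPM with LPS, log2 fold change 4.73 ± 0.33 (SE, adjusted p = 3.06e-05). CCL5, already high in basal cells, had 279, 281 and 293 TPM in the basal libraries and 556, 449 and 544 TPM with LPS, log2 fold change 1.09 ± 0.11 (SE, adjusted p = 1.72e-05). Each of these genes was free of overlap, and CCL28, an epithelial chemokine, was the member that fell (log2 fold change -0.91 ± 0.17).

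**Figure D3:**
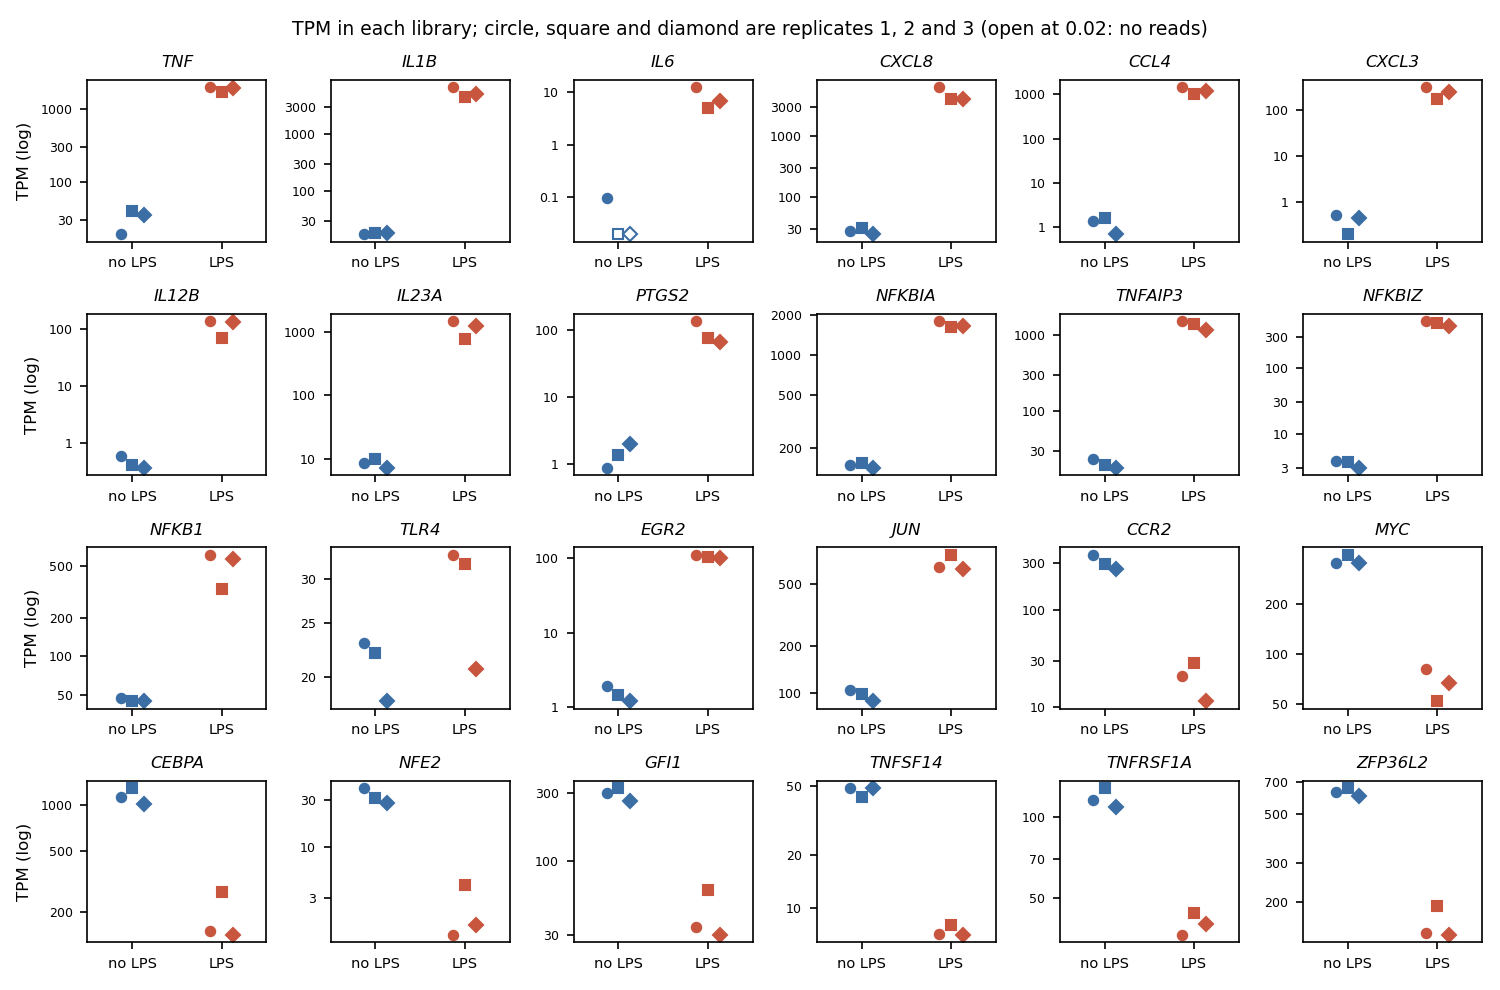
TPM (log scale) of 24 genes in each of the 6 shNR4A3 libraries at 5% CO2, without LPS (blue) and with LPS (red); circles, squares and diamonds are replicates 1, 2 and 3, and open symbols mark libraries with no reads. The groups overlap in TLR4 and in no other panel, and LPS replicate 2 (square) is often the LPS library nearest to the basal level.

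In the interleukin-1 family 6 of 12 tested members were higher and none lower. IL1B (chr2:112829751-112836903), which encodes the precursor of interleukin-1 beta, had 17.5, 18.05 and 18.3 TPM in the basal libraries and 6508, 4415 and 5054 TPM with LPS, log2 fold change 8.44 ± 0.21 (SE, adjusted p = 2.35e-09). IL1A, its neighbour within 63 kb (chr2:112773915-112836903), had 0.282, 1.598 and 1.03 TPM in the basal libraries and 596, 337 and 371 TPM with LPS, log2 fold change 9.06 ± 0.46 (SE, adjusted p = 1.14e-05). The receptor chains for interleukin-18 rose from low levels: IL18RAP had 0.47, 0.305 and 0.403 TPM in the basal libraries and 46.8, 20.95 and 37.9 TPM with LPS, log2 fold change 6.68 ± 0.48 (SE, adjusted p = 3.38e-05), and IL18R1 had 0.0916, 0.208 and 0.137 TPM in the basal libraries and 14.9, 7.16 and 15.3 TPM with LPS, log2 fold change 6.62 ± 0.48 (SE, adjusted p = 7.39e-06). IL1RN, which encodes the receptor antagonist, stood at 41.5, 33.8 and 40.1 TPM in the basal libraries and 67.6, 37.3 and 54.05 TPM with LPS and was not called (log2 fold change 0.69 ± 0.24, adjusted p = 0.0683). Without LPS replicate 2 its log2 fold change was 0.93 and it was called.

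The inflammasome list, which holds the machinery that cuts interleukin-1 beta and opens the cell membrane, moved the other way: 9 of 17 members fell, 3 rose and the median was -0.31. NLRP3, the best known sensor, had 124, 150.2 and 123 TPM in the basal libraries and 84.6, 83.7 and 68.3 TPM with LPS, log2 fold change -0.52 ± 0.10 (SE, adjusted p = 0.00243). PYCARD, the adaptor ASC, went from 274, 259 and 249.7 to 169.6, 195 and 177 TPM (log2 fold change -0.31 ± 0.09 SE, adjusted p = 0.019). GSDMD, the pore former, went from 83.1, 90.03 and 74.5 to 52.9, 58.9 and 55.9 TPM (log2 fold change -0.34 ± 0.09 SE, adjusted p = 0.0127). NLRC4 fell with a log2 fold change of -1.87 ± 0.34 and NOD1 with -1.23 ± 0.27. Among those that rose, CASP5, an intracellular LPS sensor, had 0.125, 0.142 and 0.125 TPM in the basal libraries and 5.11, 1.12 and 3.47 TPM with LPS, log2 fold change 4.73 ± 0.74 (SE, adjusted p = 5.04e-04), with LPS replicate 2 the lowest of the LPS libraries. CASP4, the related sensor, had 33.98, 30.7 and 33.2 TPM in the basal libraries and 42.9, 37.05 and 39.97 TPM with LPS, log2 fold change 0.52 ± 0.11 (SE, adjusted p = 0.00362). CASP1, which cuts interleukin-1 beta, had 62.8, 47.2 and 54.97 TPM in the basal libraries and 77.2, 55.8 and 55.4 TPM with LPS and was not called (log2 fold change 0.41 ± 0.18, adjusted p = 0.124).

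TNF (chr6:31575567-31578336), the first cytokine of the LPS response, had 19.3, 39.8 and 35.2 TPM in the basal libraries and 1964, 1712 and 1929 TPM with LPS, log2 fold change 6.13 ± 0.26 (SE, adjusted p = 1.79e-06). The 3 LPS-stimulated libraries were close to each other and far above the basal ones. In the TNF superfamily of ligands 7 of 14 members rose and 4 fell. TNFSF15, an activator of T cells, had 0.682, 0.545 and 0.278 TPM in the basal libraries and 11.4, 4.404 and 6.35 TPM with LPS, log2 fold change 4.11 ± 0.50 (SE, adjusted p = 9.34e-04). LTA, which encodes lymphotoxin alpha beside TNF on chromosome 6, had 3.098, 1.302 and 2.98 TPM in the basal libraries and 17.1, 10.5 and 24.4 TPM with LPS, log2 fold change 3.03 ± 0.40 (SE, adjusted p = 3.51e-04), and LTB, on the other side of TNF, had 30.4, 30.9 and 22.4 TPM in the basal libraries and 115, 114 and 154 TPM with LPS, log2 fold change 2.42 ± 0.16 (SE, adjusted p = 6.91e-07). TNFSF14, which encodes LIGHT, fell from 48.4, 43.3 and 48.3 to 7.04, 7.92 and 6.97 TPM (log2 fold change -2.46 ± 0.11 SE, adjusted p = 9.72e-09).

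Receptors for these ligands split evenly, with 5 of 15 higher and 5 lower. Both receptors for TNF itself were lower. TNFRSF1A, which carries the death domain, had 115, 128 and 109 TPM in the basal libraries and 36.6, 44.2 and 40.1 TPM with LPS, log2 fold change -1.32 ± 0.09 (SE, adjusted p = 4.05e-07). TNFRSF1B had 160.1, 178 and 132 TPM in the basal libraries and 68.8, 83.7 and 54.1 TPM with LPS, log2 fold change -0.97 ± 0.14 (SE, adjusted p = 4.07e-04). The receptors that rose were TNFRSF4, TNFRSF9, TNFRSF10B, TNFRSF18 and CD40. TNFRSF9, which encodes 4-1BB, a co-stimulatory receptor of lymphocytes, had 0.063, 0.107 and 0.0943 TPM in the basal libraries and 8.29, 4.61 and 9.28 TPM with LPS, log2 fold change 6.57 ± 0.43 (SE, adjusted p = 7.79e-07). CD40 had 12.7, 14.4 and 14.1 TPM in the basal libraries and 139.6, 87.96 and 176 TPM with LPS, log2 fold change 3.53 ± 0.29 (SE, adjusted p = 1.27e-04). No library of either group overlapped in any of the 4 genes.

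Interleukins of the IL-6, IL-10 and IL-12 families and the colony-stimulating factors had a median of 4.26, with 9 of 13 higher and none lower. IL23A, which encodes p19 of interleukin-23, was the most abundant, with 8.73, 10.1 and 7.21 TPM in the basal libraries and 1472, 759.7 and 1232 TPM with LPS, log2 fold change 7.29 ± 0.36 (SE, adjusted p = 1.00e-05). IL12B, which encodes p40, shared by interleukins 12 and 23, had 0.578, 0.41 and 0.361 TPM in the basal libraries and 137, 69.1 and 129 TPM with LPS, log2 fold change 8.16 ± 0.47 (SE, adjusted p = 2.22e-05). IL12A, which encodes p35 of interleukin-12, was not called. IL6 stayed low in these cells at 2 h, with 0.0963, 0 and 0 TPM in the basal libraries and 12.5, 4.95 and 6.96 TPM with LPS, and only basal replicate 1 held any read (log2 fold change 7.70 ± 0.73 SE, adjusted p = 1.75e-05). EBI3, a subunit of interleukins 27 and 35, had 2.48, 2.47 and 0.93 TPM in the basal libraries and 141, 59.3 and 163 TPM with LPS, log2 fold change 6.19 ± 0.57 (SE, adjusted p = 2.36e-04). IL10, the main anti-inflammatory cytokine, had 0.403, 0 and 0 TPM in the basal libraries and 0.934, 1.13 and 1.02 TPM with LPS and a log2 fold change of 2.97 ± 0.81 (adjusted p = 0.0159); it was called on a handful of reads, and the call was lost without basal replicate 2 or 3. CSF3, which encodes G-CSF, had 0.18, 0 and 0 TPM in the basal libraries and 1.91, 1.81 and 2.79 TPM with LPS, log2 fold change 5.11 ± 0.69.

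Interferon beta is made through TICAM1 and drives a later wave of genes. IFNB1 had no read in the 3 basal libraries and 3.44, 4.41 and 2.34 TPM with LPS, at least 4.75-fold higher when each basal library is set at 3 counts. Of 35 tested interferons and interferon-stimulated genes, 24 rose and 2 fell, but most by little: the median was 0.64 and 11 rose at least 2-fold. GBP2, a guanylate-binding protein, had 2.57, 3.71 and 3.97 TPM in the basal libraries and 52.6, 34.4 and 46.6 TPM with LPS, log2 fold change 3.94 ± 0.22 (SE, adjusted p = 1.48e-06). IFIT2 had 7.92, 11.9 and 13.5 TPM in the basal libraries and 45.5, 31.5 and 52.5 TPM with LPS, log2 fold change 2.19 ± 0.25 (SE, adjusted p = 3.97e-04). ISG15, a ubiquitin-like modifier, had 77.4, 124 and 111 TPM in the basal libraries and 177, 151 and 221 TPM with LPS, log2 fold change 1.05 ± 0.18 (SE, adjusted p = 0.00203). MX1 had 17.1, 20.3 and 21.5 and 20.2, 21.4 and 23.2 TPM in the same order (log2 fold change 0.36 ± 0.11 SE, adjusted p = 0.0252), and its groups overlapped in TPM. IRF5, a transcription factor of the TLR pathway, fell, with 126, 116 and 94.8 TPM in the basal libraries and 36.5, 47.9 and 30.5 TPM with LPS, log2 fold change -1.34 ± 0.15 (SE, adjusted p = 8.16e-05), and RSAD2 and IFI44L were among the 9 that were not called.

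**Figure D4:**
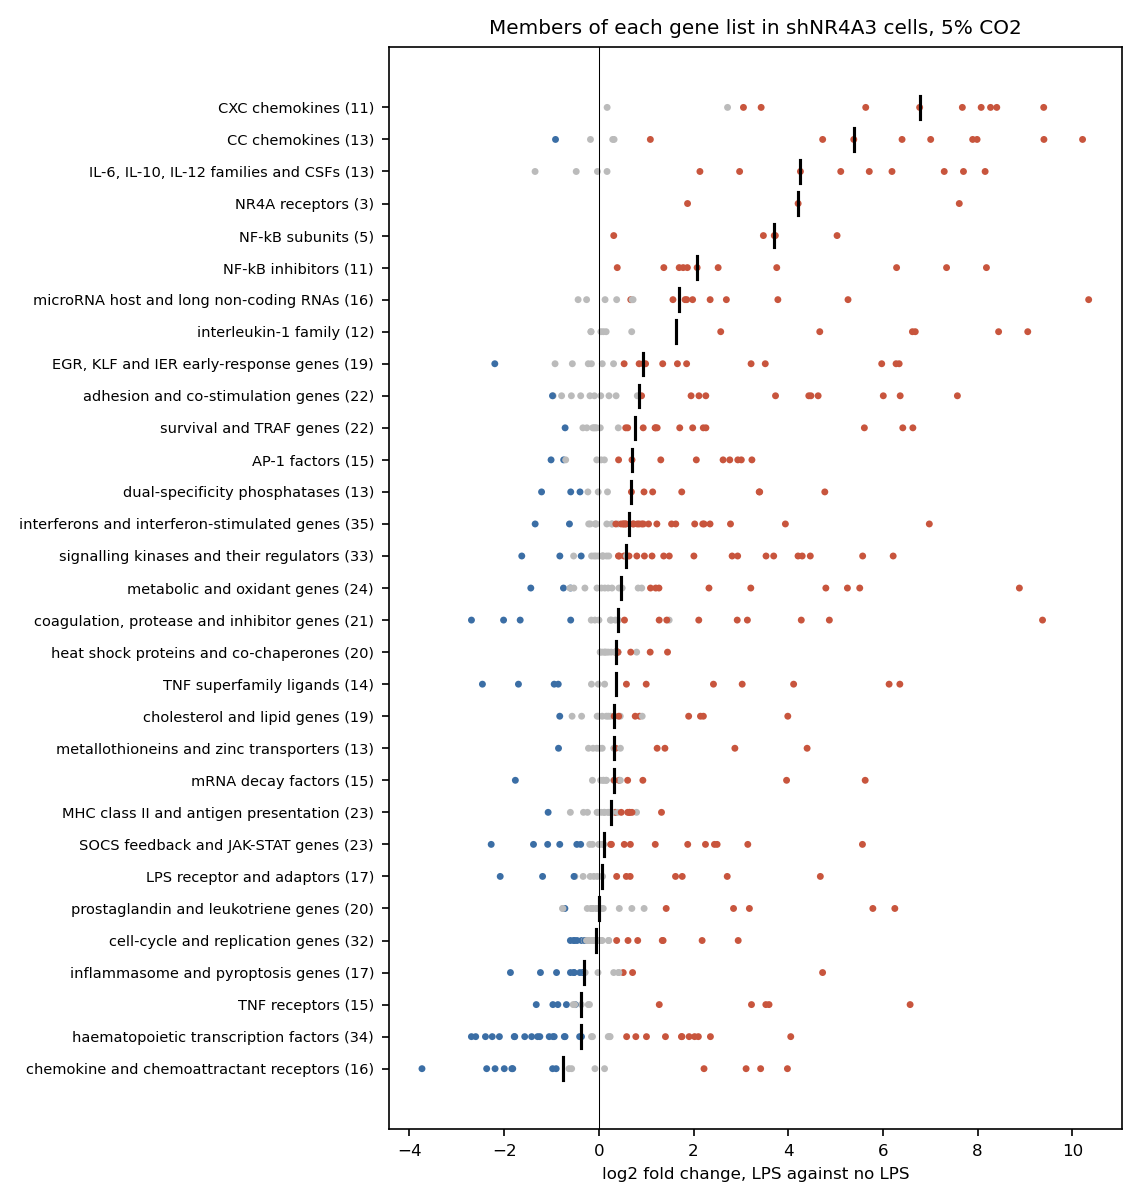
Log2 fold change, LPS-stimulated against basal (x axis), for the tested members of 31 gene lists in shNR4A3 cells at 5% CO2, with the number tested in brackets; red and blue points are members called higher and lower, grey points are not called and black bars are list medians. CXC chemokines (median 6.78) and CC chemokines (5.38) lie at the top, chemokine and chemoattractant receptors (-0.77) and haematopoietic transcription factors (-0.39) at the bottom.

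The receptors through which monocytes follow chemokines and other attractants were the list with the lowest median, -0.77, with 8 of 16 members lower and 4 higher. CCR2 (chr3:46353734-46360928), the receptor for CCL2 that defines classical monocytes, had 370.1, 299 and 261 TPM in the basal libraries and 20.99, 28.5 and 11.4 TPM with LPS, log2 fold change -3.74 ± 0.32 (SE, adjusted p = 1.56e-04). CCR1, a receptor for CCL3 and CCL5, had 146, 144 and 106 TPM in the basal libraries and 28.1, 22.1 and 15.5 TPM with LPS, log2 fold change -2.37 ± 0.23 (SE, adjusted p = 1.39e-04). CX3CR1, the fractalkine receptor, had 69.96, 52.1 and 61.1 TPM in the basal libraries and 11.5, 16.3 and 12.1 TPM with LPS, log2 fold change -2.00 ± 0.15 (SE, adjusted p = 1.42e-06). In each of the 3, every LPS-stimulated library was far below every basal library. CXCR4, the receptor for CXCL12, had 73.6, 48.6 and 38.9 TPM in the basal libraries and 25.8, 29.7 and 19.3 TPM with LPS, log2 fold change -0.90 ± 0.26 (SE, adjusted p = 0.0348), and was no longer called when any LPS library was left out (adjusted p 0.0704 to 0.105). Of the members that rose, C3AR1, the receptor for complement C3a, had 14.6, 23.8 and 22.6 TPM in the basal libraries and 192, 166 and 197 TPM with LPS, log2 fold change 3.42 ± 0.17 (SE, adjusted p = 7.00e-08). CCRL2, a receptor that binds chemerin, had 0.391, 0.443 and 0.585 TPM in the basal libraries and 7.85, 4.44 and 7.11 TPM with LPS, log2 fold change 3.98 ± 0.35 (SE, adjusted p = 3.41e-06). CCR7, which guides cells to lymph nodes, had 0.159, 0.361 and 0.556 TPM in the basal libraries and 3.09, 1.51 and 3.405 TPM with LPS, log2 fold change 3.11 ± 0.49 (SE, adjusted p = 4.15e-04).

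Of 15 AP-1 factors, 9 rose and 2 fell. JUN had 105, 99.2 and 88.9 TPM in the basal libraries and 643, 769.8 and 618 TPM with LPS, log2 fold change 3.01 ± 0.10 (SE, adjusted p = 5.68e-10). ATF3, a repressor induced by many stresses, had 5.67, 8.79 and 6.31 TPM in the basal libraries and 61.5, 57.5 and 47.4 TPM with LPS, log2 fold change 3.23 ± 0.16 (SE, adjusted p = 2.46e-08). MAFF, a small MAF protein, had 2.91, 4.47 and 2.52 TPM in the basal libraries and 25.8, 21.2 and 17.2 TPM with LPS, log2 fold change 2.93 ± 0.21 (SE, adjusted p = 3.33e-06). FOS, whose RNA is known to peak within the first hour of a stimulus, had 45.5, 44.9 and 47.2 TPM in the basal libraries and 52.9, 39.1 and 35.6 TPM with LPS with overlapping groups and was not called (log2 fold change 0.12 ± 0.15, adjusted p = 0.632); its sign turned negative without the scaling. FOSL2 fell with a log2 fold change of -0.74 ± 0.13 and BATF with -1.01 ± 0.18. In the EGR, KLF and IER list 12 of 19 rose and 1 fell. EGR2 had 1.89, 1.47 and 1.19 TPM in the basal libraries and 112, 105 and 102 TPM with LPS, log2 fold change 6.34 ± 0.16 (SE, adjusted p = 3.74e-11). EGR3 had 0.411, 1.35 and 0.246 TPM in the basal libraries and 47.7, 56.7 and 26.2 TPM with LPS, log2 fold change 6.28 ± 0.50 (SE, adjusted p = 1.08e-04). IER3, which protects cells from apoptosis, had 3.38, 4.34 and 2.35 TPM in the basal libraries and 209.6, 153 and 175 TPM with LPS, log2 fold change 5.97 ± 0.22 (SE, adjusted p = 3.49e-09). KLF4, KLF9, KLF10, KLF11, KLF13 and SRF were not called.

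Dual-specificity phosphatases, which switch off MAP kinases, had 7 of 13 members higher and 3 lower. DUSP8 had 2.07, 2.84 and 1.98 TPM in the basal libraries and 55.4, 54.4 and 51.1 TPM with LPS, log2 fold change 4.77 ± 0.14 (SE, adjusted p = 1.30e-10). DUSP1, the classical brake on p38, had 7.601, 5.71 and 7.002 TPM in the basal libraries and 76.9, 55.5 and 51.8 TPM with LPS, log2 fold change 3.397 ± 0.21 (SE, adjusted p = 3.83e-07). DUSP7 fell from 59.04, 79.3 and 61.97 to 18.4, 31.9 and 24.4 TPM (log2 fold change -1.21 ± 0.16 SE, adjusted p = 2.03e-04). Proteins that destroy cytokine mRNA were mixed, with 6 of 15 higher and 1 lower. ZC3H12A, which encodes the endonuclease Regnase-1, had 13.9, 20.6 and 12.4 TPM in the basal libraries and 666, 649.6 and 657 TPM with LPS, log2 fold change 5.63 ± 0.16 (SE, adjusted p = 6.40e-10). ZFP36, which encodes tristetraprolin, had 196, 215 and 201 TPM in the basal libraries and 292, 408 and 303 TPM with LPS, log2 fold change 0.93 ± 0.10 (SE, adjusted p = 2.77e-05), with replicate 2 the highest of the LPS libraries. Its relative ZFP36L2 had 629.5, 654 and 605 TPM in the basal libraries and 146, 192 and 142 TPM with LPS, log2 fold change -1.76 ± 0.10 (SE, adjusted p = 6.83e-08), and ZFP36L1 was not called. SOCS3, which blocks signalling by interleukin-6 receptors, had 9.11, 11.4 and 8.23 TPM in the basal libraries and 440.5, 303 and 415 TPM with LPS, log2 fold change 5.57 ± 0.21 (SE, adjusted p = 6.83e-08). SOCS1, which blocks the interferon receptors, fell from 15.3, 27.1 and 17.1 to 3.92, 6.18 and 9.16 TPM (log2 fold change -1.38 ± 0.30 SE, adjusted p = 0.00435). CISH, a STAT5 target of the same family, fell with a log2 fold change of -2.27 ± 0.17, and of all 23 SOCS and JAK-STAT genes 11 rose and 6 fell.

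MicroRNA host genes and long non-coding RNAs rose in 10 of 16 cases and fell in none. MIR3142HG (chr5:160468268-160487426), which hosts the microRNA miR-146a, had 0.433, 0.0983 and 0.0865 TPM in the basal libraries and 295, 232 and 214 TPM with LPS, log2 fold change 10.35 ± 0.31 (SE, adjusted p = 4.44e-09), the largest log2 fold change of all named genes. MIR155HG (chr21:25561909-25575168), the host of miR-155, had 23.2, 18.2 and 19.4 TPM in the basal libraries and 255, 200.3 and 261 TPM with LPS, log2 fold change 3.78 ± 0.16 (SE, adjusted p = 1.92e-08). These counts measure the host transcript and not the mature microRNA. Both microRNAs are known in myeloid cells, miR-146a as a brake on the adaptors TRAF6 and IRAK1 and miR-155 as a promoter of inflammation. Their RefSeq mature sequences are shown because they are the products of both host genes, with the seed (bases 2 to 8) in capitals.
hsa-miR-146a-5p, chr5:160485372-160485393, plus strand: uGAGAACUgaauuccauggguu
hsa-miR-155-5p, chr21:25573983-25574006, plus strand: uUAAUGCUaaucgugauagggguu
Their seeds differ. MIR22HG, MIR17HG and MIR222HG rose less, with log2 fold changes of 1.57 ± 0.23, 1.86 ± 0.18 and 2.69 ± 0.25. Outside the list, MIR3945HG had no read in any basal library and 32.04, 10.6 and 20.4 TPM with LPS, at least 33.9-fold higher when each basal library is set at 3 counts.

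Transcription factors of blood cell identity moved mainly downwards, with 18 of 34 lower (12 at least 2-fold), 11 higher and a median of -0.39. CEBPA (chr19:33299934-33302564), a master factor of the granulocyte and monocyte lineage, had 1121, 1281 and 1009.6 TPM in the basal libraries and 150.2, 271 and 141 TPM with LPS, log2 fold change -2.39 ± 0.23 (SE, adjusted p = 2.52e-04). GFI1, a repressor that favours granulocytes over monocytes, had 298, 322 and 263 TPM in the basal libraries and 34.3, 62.4 and 29.98 TPM with LPS, log2 fold change -2.60 ± 0.24 (SE, adjusted p = 2.54e-04). HHEX, a homeobox factor of blood progenitors, had 34.3, 31.8 and 35.6 TPM in the basal libraries and 4.76, 4.498 and 4.24 TPM with LPS, log2 fold change -2.69 ± 0.15 (SE, adjusted p = 6.37e-08). For CEBPA and GFI1, LPS replicate 2 kept more of the basal level than replicates 1 and 3, and no group overlapped. MYC, the growth regulator amplified or overexpressed in many leukaemias, had 359, 401 and 356 TPM in the basal libraries and 80.96, 51.7 and 66.5 TPM with LPS, log2 fold change -2.25 ± 0.17 (SE, adjusted p = 9.43e-06). MYB, a progenitor factor, had 272, 245 and 272 TPM in the basal libraries and 54.5, 84.01 and 59.6 TPM with LPS, log2 fold change -1.79 ± 0.13 (SE, adjusted p = 1.35e-06), and its antisense transcript MYB-AS1 had 5, 8 and 9 counts in the basal libraries and 0 in all LPS libraries, at least 2.61-fold lower; without a stated strand setting the reads of the pair cannot be told apart. NFE2, known from megakaryocytes and erythroid cells and not on the list, was among the strongest falls of all genes, with 39.2, 31.2 and 27.5 TPM in the basal libraries and 1.27, 4.06 and 1.63 TPM with LPS, log2 fold change -3.65 ± 0.32 (SE, adjusted p = 2.57e-05).

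The factors that rose included BCL6, NFIL3, MXD1, PRDM1 and SPI1. BCL6, a repressor that opposes NF-kB at inflammatory genes, had 8.69, 7.696 and 6.87 TPM in the basal libraries and 126, 98.9 and 106 TPM with LPS, log2 fold change 4.05 ± 0.15 (SE, adjusted p = 3.28e-09). NFIL3 had 41.01, 37.97 and 38.7 TPM in the basal libraries and 136, 154 and 122 TPM with LPS, log2 fold change 2.02 ± 0.11 (SE, adjusted p = 4.22e-08). MXD1, which competes with MYC for its partner MAX, had 11.3, 13.2 and 12.6 TPM in the basal libraries and 59.6, 60.1 and 43.1 TPM with LPS, log2 fold change 2.36 ± 0.13 (SE, adjusted p = 6.60e-08). PRDM1 had 14.7, 12.5 and 11.2 TPM in the basal libraries and 44.1, 37.03 and 29.2 TPM with LPS, log2 fold change 1.74 ± 0.17 (SE, adjusted p = 3.56e-05). SPI1, which encodes PU.1, was high throughout and went from 773, 713 and 651 to 1132, 939 and 1073 TPM (log2 fold change 0.78 ± 0.11 SE, adjusted p = 2.73e-04). All 5 genes were free of overlap. RUNX1 fell slightly (log2 fold change -0.37 ± 0.11 SE, adjusted p = 0.032), and at 10% CO2 it was called in the opposite direction (0.23 ± 0.08).

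Survival genes and TRAF adaptors rose in 13 of 22 cases and fell in 1. BIRC3, which encodes cIAP2, had 0.636, 0.692 and 0.662 TPM in the basal libraries and 56.8, 48.1 and 64.7 TPM with LPS, log2 fold change 6.63 ± 0.18 (SE, adjusted p = 5.63e-11). BCL2A1, an NF-kB-driven relative of BCL2, had 5.86, 3.74 and 3.11 TPM in the basal libraries and 397, 200.2 and 335 TPM with LPS, log2 fold change 6.42 ± 0.41 (SE, adjusted p = 3.50e-05). BAK1, which promotes apoptosis, fell from 132, 137 and 124 to 72.8, 68.3 and 64.1 TPM (log2 fold change -0.71 ± 0.10 SE, adjusted p = 1.72e-04). Adhesion and co-stimulation genes rose in 11 of 22 cases. CD83, a marker of mature dendritic cells, had 14.8, 15.02 and 14.3 TPM in the basal libraries and 911, 706 and 812 TPM with LPS, log2 fold change 6.01 ± 0.15 (SE, adjusted p = 3.74e-11). ICAM1, the ligand of leukocyte integrins, had 7.91, 7.81 and 6.501 TPM in the basal libraries and 597, 403 and 561 TPM with LPS, log2 fold change 6.36 ± 0.21 (SE, adjusted p = 4.69e-08). SELPLG, the selectin ligand of rolling leukocytes, was the member that fell, with 91.98, 101 and 80.2 TPM in the basal libraries and 34.8, 53.2 and 32.02 TPM with LPS, log2 fold change -0.98 ± 0.15 (SE, adjusted p = 5.81e-04). Antigen presentation changed less, with a median of 0.26 against 0.86 for adhesion and co-stimulation genes. Of its 23 genes 7 rose and 1 fell, where 11.9% and 13.4% of all genes tested did. HLA-DRA, with 23.7, 17.3 and 17.4 TPM in the basal libraries and 46.5, 41.6 and 37.8 TPM with LPS, log2 fold change 1.32 ± 0.18 (SE, adjusted p = 1.22e-04), was the 1 that rose at least 2-fold.

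Of 20 prostaglandin and leukotriene genes 5 rose and 1 fell, a share called near the 25.3% of all genes tested. PTGS2, the inducible cyclooxygenase, had 0.87, 1.37 and 1.97 TPM in the basal libraries and 134, 74.4 and 65.1 TPM with LPS, log2 fold change 6.25 ± 0.44 (SE, adjusted p = 5.75e-05). PTGER2, a receptor for prostaglandin E2, had 0.0806, 0.183 and 0.161 TPM in the basal libraries and 6.57, 7.48 and 7.38 TPM with LPS, log2 fold change 5.79 ± 0.35 (SE, adjusted p = 1.54e-07). PTGS1, PTGES, ALOX5 and LTA4H were not called. Among 21 coagulation and protease genes 9 rose and 4 fell. TNFAIP6, a hyaluronan-binding protein of inflamed tissue, had 1.77, 1.86 and 1.01 TPM in the basal libraries and 1101, 523 and 989.9 TPM with LPS, log2 fold change 9.37 ± 0.48 (SE, adjusted p = 1.19e-05). F3, tissue factor, which starts coagulation, had 93.6, 104 and 75.7 TPM in the basal libraries and 177, 227 and 164 TPM with LPS, log2 fold change 1.27 ± 0.12 (SE, adjusted p = 1.27e-05). SERPINB2, an inhibitor of plasminogen activation, fell from 14.1, 15.1 and 14.8 to 2.76, 3.73 and 2.92 TPM (log2 fold change -2.01 ± 0.17 SE, adjusted p = 3.34e-06).

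In metabolism 9 of 24 members rose and 3 fell. ACOD1, which makes itaconate, had 0, 0 and 0.0915 TPM in the basal libraries and 26.9, 8.29 and 17.2 TPM with LPS, log2 fold change 8.88 ± 0.92 (SE, adjusted p = 2.66e-04), with LPS replicate 2 again the lowest LPS library. SLC2A6, a sugar transporter, had 13.7, 12.8 and 10.1 TPM in the basal libraries and 568, 341 and 510.4 TPM with LPS, log2 fold change 5.51 ± 0.28 (SE, adjusted p = 1.13e-05). GCH1, the first enzyme of tetrahydrobiopterin synthesis, had 5.61, 5.98 and 4.79 TPM in the basal libraries and 224, 118 and 187 TPM with LPS, log2 fold change 5.25 ± 0.31 (SE, adjusted p = 2.65e-05). SLC2A1, the main glucose transporter, fell from 214, 248 and 203 to 98.9, 148 and 95.3 TPM (log2 fold change -0.75 ± 0.13 SE, adjusted p = 0.00124), and HK2, PFKFB3 and LDHA of glycolysis were not called. SLC39A8, a zinc importer, had 28.9, 33.1 and 31.8 TPM in the basal libraries and 85.03, 49.6 and 74.8 TPM with LPS, log2 fold change 1.40 ± 0.21 (SE, adjusted p = 0.00169), and the zinc exporter SLC30A1 had 48.1, 55.8 and 65.3 TPM in the basal libraries and 24.7, 27.6 and 28.1 TPM with LPS, log2 fold change -0.85 ± 0.11 (SE, adjusted p = 1.28e-04). MTF1, the zinc-sensing transcription factor, had 15.8, 18.7 and 17.7 TPM in the basal libraries and 114, 100.3 and 113 TPM with LPS, log2 fold change 2.87 ± 0.11 (SE, adjusted p = 1.39e-09). MT2A, a metallothionein, was called (log2 fold change 1.23 ± 0.23 SE, adjusted p = 0.00393) but not with replicate numbers kept as a block (adjusted p = 0.062).

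Signalling kinases and their regulators rose in 19 of 33 cases and fell in 3, with a median of 0.58. GEM, a small GTPase that inhibits calcium channels, had 1.73, 2.48 and 1.88 TPM in the basal libraries and 30.1, 47.02 and 38.9 TPM with LPS, log2 fold change 4.47 ± 0.19 (SE, adjusted p = 4.57e-09), again with replicate 2 the highest LPS library. SPRY2, an inhibitor of growth factor signalling, fell from 58.8, 62.996 and 51.7 to 17.9, 17.4 and 12.8 TPM (log2 fold change -1.63 ± 0.14 SE, adjusted p = 2.72e-06). Of 32 cell-cycle genes 7 rose and 6 fell, with a median of -0.06, where 11.9% and 13.4% of all genes tested rose and fell. PLK2 had 8.49, 9.11 and 8.602 TPM in the basal libraries and 56.96, 65.8 and 50.6 TPM with LPS, log2 fold change 2.94 ± 0.11 (SE, adjusted p = 1.75e-09), whereas MKI67, PCNA, TOP2A and MCM2 to MCM7 were not called. Cholesterol and lipid genes had 8 of 19 higher and 1 lower, led by OLR1, the receptor for oxidised LDL, with 1.37, 0.592 and 1.37 TPM in the basal libraries and 17.6, 8.38 and 19.8 TPM with LPS, log2 fold change 3.99 ± 0.44 (SE, adjusted p = 2.63e-04). Of 20 heat shock proteins and co-chaperones 7 rose, against 11.9% of all genes tested, with DNAJB4 at 1.45 the largest. Of 13 mitochondrially encoded proteins none was called, with a median of 0.21, where 25.3% of all genes tested were called.

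The largest falls of all genes, by log2 fold change, included some that no list held. FFAR4, a receptor for long-chain fatty acids, had 3.34, 2.23 and 2.84 TPM in the basal libraries and 0.091, 0.165 and 0.0412 TPM with LPS, log2 fold change -4.61 ± 0.44 (SE, adjusted p = 9.07e-06). CASS4, a scaffold of focal adhesions, had 3.499, 3.704 and 3.93 TPM in the basal libraries and 0.219, 0.308 and 0.0661 TPM with LPS, log2 fold change -4.05 ± 0.35 (SE, adjusted p = 3.83e-06). INKA1, an inhibitor of the kinase PAK4, had 27.02, 33.1 and 31.4 TPM in the basal libraries and 1.599, 1.93 and 2.25 TPM with LPS, log2 fold change -3.74 ± 0.23 (SE, adjusted p = 1.88e-07). In each of the 3 every LPS library was far below every basal library, an absence of overlap that their choice required. Among the largest rises outside the lists, SHROOM3, an actin-binding protein of epithelia, had 0.0909, 0.155 and 0.0757 TPM in the basal libraries and 63.8, 44.1 and 58.97 TPM with LPS, log2 fold change 9.25 ± 0.27 (SE, adjusted p = 5.32e-09), and RNF223 and LINC02605 had no read in any basal library (at least 24.3-fold and 30.9-fold higher, each basal library set at 3 counts).

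Depth was 16171161 to 21004337 counts per library, within the range of all 36 libraries (up to 23929138). Basal replicate 2 stood apart, with 23149 genes detected against 26312 to 28805 in the other 5 libraries and 1.05% of counts from mitochondrial genes against 1.68% to 2.12%. Without replicate 2 in both groups, 2221 genes rose and 2348 fell. LPS replicate 2 was the lowest of the 3 LPS libraries in 760 of the 1080 genes at least 2-fold higher (70.4%, against 36.9% of genes tested). It was the highest in 376 of those at least 2-fold lower (57.1%, against 37.7% of genes tested). These shares leave out genes with no read in the LPS libraries. Among the higher genes described above, those highest in it in TPM included NR4A1, NR4A2, NR4A3, JUN, EGR3, ZFP36, GEM and PLK2. NFIL3, MXD1, F3, PTGER2, IFNB1, RELA and IL10 were also highest in it, whereas EGR2, ATF3, MAFF and DUSP1 were highest in LPS replicate 1. The part of this library in the differences between lines was checked by leaving it out. Of 14 tested monocyte markers SPI1 rose, CSF1R (-0.36) and CD33 (-0.53) fell and 11 were not called, a share called near the 25.3% of all genes tested. The summed level of the monocyte markers was 2199 to 2771 TPM in basal and 2209 to 2755 TPM in LPS libraries. FCN1 was nearly absent. Markers of other cells were low in both groups: T and NK cells summed to 48.3 to 61.3 TPM in basal and 41.3 to 56.1 TPM in LPS libraries, mostly NKG7, B cells to 9.67 to 11.8 and 5.47 to 9.54 TPM with MS4A1 at 0, erythroid cells and platelets to 6.56 to 8.59 and 5.60 to 8.27 TPM with HBG1 at 0, and fibroblasts and epithelium to 2.59 to 3.33 and 2.21 to 2.83 TPM. Of those marker lists 1 gene was called, DCN, which rose from a mean of 0.00517 to 0.242 TPM.

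To ask whether depletion of NR4A3 altered the response, the LPS effect in shNR4A3 cells was set against that in shNT cells at 5% CO2. No gene of 17720 (0%) passed the edgeR test of the difference between the responses, although 854 genes had a p under 0.05 before adjustment and 8 were called by DESeq2. The count was 85 in edgeR with no filter on low counts and 17 with replicate numbers kept as a block, although whether the numbers pair these 2 lines was not settled. In shNT cells LPS changed 4052 genes (22.9%), 1993 higher (11.2%) and 2059 lower (11.6%). Of the 2111 genes that rose in shNR4A3 cells 72.0% also rose in shNT cells, which were 76.3% of the shNT list, and of the genes that fell 66.3% and 76.6%. The data could not resolve small differences: for genes changed at least 2-fold, the 95% interval of the difference reached a median of 0.819 on the log2 scale to either side. Without LPS replicate 2 of the shNR4A3 cells, 39 genes were called, 97.4% of them with a higher value in shNR4A3 cells. With any other single library left out the count was 0. The library left out was the lowest of its group in 70.4% of genes at least 2-fold higher. Leaving it out of 1 line alone favours higher values there, so the direction of these calls is no added support.

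For the main cytokines the intervals were as follows. The log2 response of CXCL8 differed by -0.06 (95% interval -0.89 to 0.77, adjusted p = 1) between the lines, shNR4A3 minus shNT. For IL1B it was 0.83 (95% interval 0.26 to 1.39, adjusted p = 1), and for TNF 0.90 (95% interval 0.24 to 1.56, adjusted p = 1). TNF had a lower basal level in shNR4A3 than in shNT cells, with a log2 difference of -1.02 ± 0.24 (SE, adjusted p = 0.0396), and a difference of -0.12 ± 0.09 (SE, adjusted p = 0.507) with LPS. CCL2 showed the same order, with -1.55 ± 0.25 (SE, adjusted p = 9.93e-04) without LPS and -0.28 ± 0.35 (SE, adjusted p = 0.706) with it. NFKBIA differed by -0.28 (95% interval -0.56 to 0.00, adjusted p = 1), NFKBIZ by -0.05 (95% interval -0.39 to 0.28, adjusted p = 1) and TNFAIP3 by 0.44 (95% interval -0.11 to 1.00, adjusted p = 1). PTGS2, at 0.14 (95% interval -1.17 to 1.45, adjusted p = 1), and CCR2, at -0.11 (95% interval -1.23 to 1.02, adjusted p = 1), had intervals too wide to tell a difference of 2-fold from none. BIRC3 had 1.19 (95% interval 0.63 to 1.75, adjusted p = 0.494), NR4A3 itself 1.65 (95% interval 0.84 to 2.46, adjusted p = 0.582) and FFAR4 -2.87 (95% interval -4.20 to -1.53, adjusted p = 0.494), intervals that leave out 0 though none passed the adjustment over all genes in this test. With replicate numbers kept as a block, IL1B (adjusted p = 0.00644), BIRC3 (adjusted p = 0.019) and CCL2 (adjusted p = 0.016) were called in edgeR. With no filter on low counts, BIRC3 (adjusted p = 3.31e-04) and FFAR4 (adjusted p = 0.00485) were called, and without LPS replicate 2 of the shNR4A3 cells BIRC3 was (adjusted p = 0.0166).

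Against shNR4A2 cells, in which LPS changed 3220 genes (18.2%; 8.91% higher, 9.26% lower), again no gene passed (0%), with 423 genes at a p under 0.05 before adjustment and 1 called by DESeq2. With replicate numbers kept as a block 1 gene passed, PRDM1, with a difference of 0.883 on the log2 scale. Of the genes called higher in shNR4A3 cells 67.0% were also called higher in shNR4A2 cells (89.6% of that list), and of those called lower 55.8% were also called lower (80.9%). Whether called or not, 2090 of 2111 and 2370 of 2379 had the same sign in shNR4A2 cells. The 95% interval of the difference reached a median of 0.88 to either side for genes changed at least 2-fold. NFKBIA differed by -0.52 (95% interval -0.83 to -0.20, adjusted p = 1) and TNF by 0.99 (95% interval 0.29 to 1.70, adjusted p = 1), shNR4A3 minus shNR4A2. BIRC3 differed by 0.35 (95% interval -0.28 to 0.98), NR4A3 by 2.18 (1.18 to 3.18) and FFAR4 by -2.48 (-4.08 to -0.87). The shNR4A2 response was also used to choose genes, without the values of either other line. The choice may still not be neutral between them. Same-numbered shNR4A2 and shNR4A3 libraries deviated together, with correlations over genes of at least 0.157, 0.146 and 0.111 in every pair of groups. For shNT and shNR4A3 libraries the lowest values were 0.071, -0.022 and 0.093. Pairs between lines and pairs within a line were not separated, so these minima do not compare the lines. In the 947 genes (5.34%) at least 2-fold higher in shNR4A2 cells, the median log2 fold change was 2.58 in shNR4A3 and 2.08 in shNT cells, and 749 (79.1%) had the larger value in shNR4A3 cells against 46.1% of all genes tested. In the 578 (3.26%) at least 2-fold lower, the medians were -1.30 and -1.11. Without LPS replicate 2 of the shNR4A3 cells, the medians in these cells were 2.75 and -1.35. These shares are descriptions with no test, since genes of 1 set of libraries are not replicates.

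**Figure D5:**
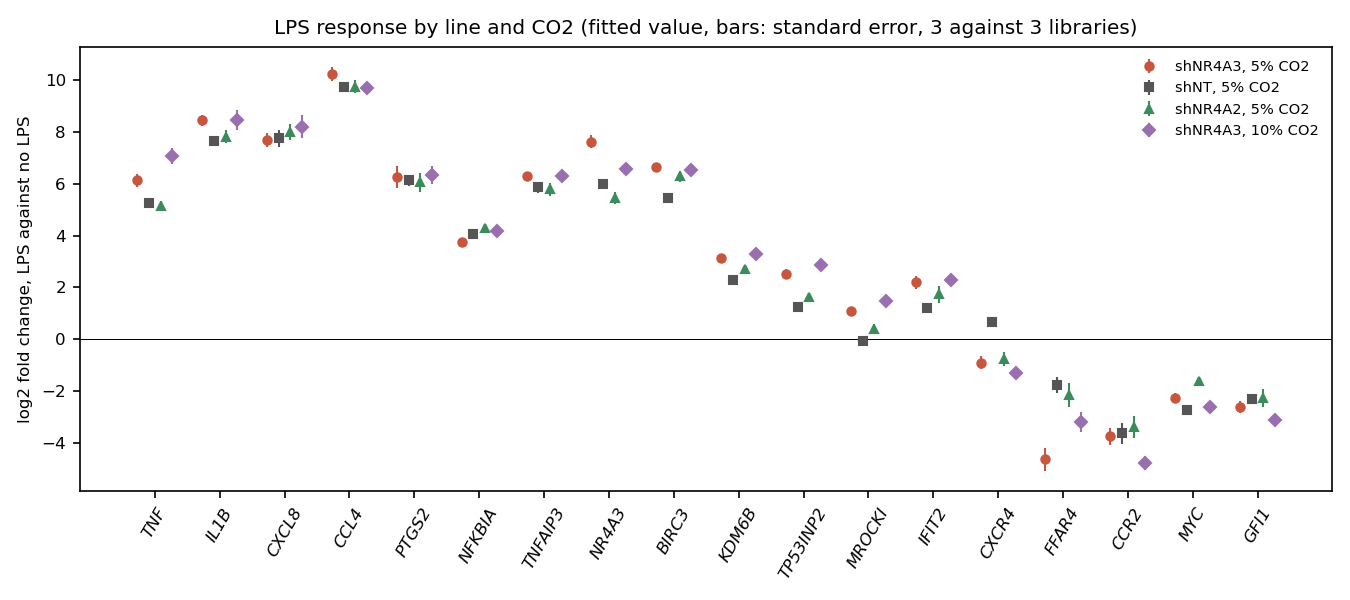
Log2 fold change of LPS-stimulated against basal cells (y axis) for 18 genes in shNR4A3, shNT and shNR4A2 cells at 5% CO2 and in shNR4A3 cells at 10% CO2; points are fitted values from 3 against 3 libraries and bars are standard errors. CXCL8, CCL4 and PTGS2 lie close together in every set, while CXCR4 is below 0 in shNR4A3 and above 0 in shNT cells.

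Buffered hypercapnia did not remove the response in shNR4A3 cells. At 10% CO2 LPS changed 7456 genes (42.1%), 3647 higher (20.6%) and 3809 lower (21.5%), and the variation between replicates was smaller (8.92% against 12.2% at 5% CO2, as the biological coefficient of variation). Of the genes called higher at 5% CO2 93.6% were also called higher at 10% CO2 (54.2% of that list), and of those called lower 90.0% were also called lower (56.2%). Whether called or not, 2104 of 2111 and 2373 of 2379 had the same sign at 10% CO2. IL1B had a log2 fold change of 8.47 ± 0.39 at 10% CO2 against 8.44 ± 0.21 at 5%, NFKBIA 4.18 ± 0.09 against 3.76 ± 0.10 and CCR2 -4.77 ± 0.26 against -3.74 ± 0.32. TNF had 7.06 ± 0.30 against 6.13 ± 0.26. These differences between CO2 levels were not tested here.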

How the data were processed

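RNA was measured in 36 libraries of 12 conditions, and 6 libraries of shNR4A3 cells at 5% CO2 make up the main comparison. The counts per gene were made by the authors with Trimmomatic 0.36, STAR 2.5.2b, GRCh38 and featureCounts (Subread 1.5.2) from unique hits, 1 library per file, and deposited without normalization. Neither the strand setting nor the annotation release is given in the sources used here. Near-identical copies and antisense genes are therefore uncertain.

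Of 57500 gene IDs, 98.1% were matched to a symbol by ID. Genes passing edgeR's filterByExpr (minimum count 10, minimum total 15) over the 12 conditions were kept, 17720 in all. The main test was edgeR 4.0.16 (R 4.3.3), quasi-likelihood F with TMM scaling and Benjamini-Hochberg adjustment over all genes tested, on the libraries of each comparison alone. Differences between lines were interaction terms. TPM used the gene lengths listed beside the counts. An exact permutation of 3 against 3 cannot go below p = 0.1 and was not used. Replicates of a group differed beyond sampling noise, with a chi-square per degree of freedom of 8.88 to 24.3 in the 6 libraries, so none was a copy.

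Same-numbered libraries deviated together in the main comparison (lowest correlations over genes 0.157, 0.146 and 0.111 for replicates 1, 2 and 3), so the blocked counts are printed beside the main ones; the labels do not say what a number shares. In simulated counts the main test recovered 55% of 2-fold and 84% of 4-fold changes (100 genes each), with 5 false calls among 17720 genes. The test of the difference from shNT cells recovered 49% and 75%, and that from shNR4A2 cells 43% and 79%. Simulated libraries shared no deviation and few genes changed in them, unlike the data, so these rates need not hold here. Promoters and microRNAs came from RefSeq tables (GRCh38.p14), and 12094 of the genes tested had a promoter there. The alternatives were DESeq2 1.42.0, other scalings and filters, 1 fit to all libraries, thinned counts, a stricter threshold and each library left out.

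The members and gene lists were chosen with earlier results of these data known. Named genes were NR4A1, NR4A2, NR4A3, TNF, IL1B, IL6, IL10, CXCL8, IFNB1, NFKBIA, TLR4 and PTGS2, the 3 largest called rises and 2 largest called falls per list, and the 10 of each over all genes, without overlap and with a mean of at least 1 TPM in the higher group. Also named, after their values were seen, were BCL3, CASP1, CCL2, CCL20, CCL5, CD14, CD33, CEBPA, CSF1R, CSF3, CX3CR1, CXCL1, CXCL11, CXCL9, CXCR4, EBI3, F3, FOS, GSDMD, IFIT2, IL18R1, IL1RN, ISG15, LTB, MIR17HG, MIR222HG, MIR22HG, MX1, MYB, MYC, NLRP3, PRDM1, PYCARD, REL, RELA, RUNX1, SPI1 and TLR2.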

Additional observations from a re-analysis of the deposited data

Results flagged for a closer look

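In 7 genes the LPS effect in shNR4A3 cells differed from that in shNT cells at 5% CO2, either by both DESeq2 and a fit with replicate numbers as a block (6 genes) or by calls of opposite direction in the lines (CXCR4 and RESF1), while none passed edgeR's main test. Whether replicate numbers pair these lines was not settled (lowest correlations 0.071, -0.022 and 0.093 over all genes tested), so the block rests on the numbers alone. In edgeR's unblocked test with no filter on low counts all 7 passed, and without LPS replicate 2 of the shNR4A3 cells 6 did, all but CXCR4. The differences below are log2 values, shNR4A3 minus shNT. CXCR4, the receptor for CXCL12, had -1.56 (95% interval -2.28 to -0.84, edgeR adjusted p = 0.582), falling in shNR4A3 cells and rising in shNT cells; its fall in shNR4A3 cells was no longer called when any LPS library was left out. RESF1, a regulator of silent chromatin, had 1.20 (edgeR adjusted p = 0.582) and was called higher in shNR4A3 and lower in shNT cells. MROCKI, a long non-coding RNA, had 1.17 (95% interval 0.79 to 1.54, edgeR adjusted p = 0.0933); it stood at 16.9, 16.5 and 13.5 TPM in the basal libraries and 30.8, 26.7 and 27.96 TPM with LPS in shNR4A3 cells and at 23.5 ± 1.37 TPM without LPS and 19.3 ± 1.896 TPM with it (mean ± SD, n = 3) in shNT cells. TP53INP2, which takes part in autophagy, had 1.29 (95% interval 0.80 to 1.78, edgeR adjusted p = 0.24), with 27.3, 27.2 and 27.5 TPM in the basal libraries and 166, 113 and 126 TPM with LPS in shNR4A3 cells. KDM6B, a histone H3K27 demethylase induced by LPS, had 0.84 (95% interval 0.51 to 1.16, edgeR adjusted p = 0.176). LINC01547 had 1.21 (edgeR adjusted p = 0.176) and ENSG00000228477, which has no symbol, 1.25 (edgeR adjusted p = 0.168). Against shNR4A2 cells (shNR4A3 minus shNR4A2) CXCR4 differed by -0.13 (95% interval -1.06 to 0.80) and RESF1 by 0.67 (0.08 to 1.25). MROCKI differed by 0.69 (0.18 to 1.20), TP53INP2 by 0.92 (0.39 to 1.45) and KDM6B by 0.41 (0.07 to 0.74). For LINC01547 the value was 0.59 (0.09 to 1.09) and for ENSG00000228477 1.24 (0.76 to 1.71).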

How the results depend on the processing

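Of 224 named genes, FOS (not called) was the 1 whose direction turned, to -0.0821 without TMM and, leaving out 1 library at a time, between -0.107 (without LPS replicate 1) and 0.238. Without TMM 4479 genes were lower, 1081 of them at least 2-fold, and at an adjusted p under 0.01 1399 were higher and 1428 lower. The counts of the difference from shNT cells were 8 with DESeq2, 85 with no filter on low counts and 17 with replicate numbers as a block; against shNR4A2 cells they were 1, 18 and 1. Whether the numbers pair shNT with shNR4A3 libraries was not settled. The lowest correlations for replicates 1, 2 and 3 were 0.071, -0.022 and 0.093 over all genes tested. They were 0.284, 0.074 and 0.238 when genes with low mean counts were left out. Pairs between lines and pairs within a line were not separated, so these minima cannot decide it. Leaving out 1 library at a time, genes called higher ranged from 1589 to 2468, lower from 1652 to 2512, at least 2-fold higher from 957 to 1150 and at least 2-fold lower from 527 to 765. The difference from shNT cells ranged from 0 to 39 genes, that from shNR4A2 cells stayed at 0, and at 10% CO2 6278 to 7035 genes were called. The basal NR4A3 difference from shNT cells ranged from -3.03 to -2.05, and without shNT replicate 2 it was -2.32 and not called. With the replicate block 9244 genes were called at 10% CO2, and among named genes it ended the call of MT2A and no other. The causes were not tested.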
